A study of Mus musculus with 8 samples.

Results

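The Nduf genes encode the nuclear subunits and many of the assembly factors of respiratory complex I. All protein-coding genes on the mouse autosomes and the X chromosome whose symbol starts with Nduf were taken, 49 of 21883 genes in the gene table. They comprise 7 core subunits, 32 accessory subunits, 8 assembly factors (Ndufaf genes) and 2 genes related to complex IV, Ndufa4 and Ndufa4l2. The accessory class was set by name as all Nduf genes outside the other classes, so it includes Ndufb4b and Ndufb4c. Accessibility was summed over the deposited regions that overlap 1000 bp on each side of either gene end ("gene ends"). It was summed separately over the distal regions, those outside every such window whose nearest gene end, within 50 kb, belonged to the gene. A region at a gene end was present for 46 of the 49 genes, and all 46 passed the filter on low counts. Ndufa6, Ndufb4b and Ndufb4c had none. Distal regions were present for 28 genes, including Ndufb4b and Ndufb4c, and all 28 were tested. Ndufa6 had neither kind of region.

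The cells were conventional type 1 dendritic cells (cDC1s), which present captured antigen to CD8 T cells, sorted from B16-OVA tumours in wild-type mice. B16-OVA melanoma cells express ovalbumin, a model antigen. Tumours were taken at day 7 or day 21 after inoculation, with 4 libraries per day, and open chromatin was profiled by ATAC-seq, in which a transposase cuts accessible DNA. The study concerns mitochondrial metabolism in dendritic cells, and the 2 days compare an early with a late tumour. The labels give no age and do not say whether libraries came from separate animals or pools, so p values reflect only how these libraries vary.

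Complex I, the NADH:ubiquinone oxidoreductase of the inner mitochondrial membrane, passes electrons from NADH to coenzyme Q and pumps protons. Its core subunits carry the flavin, the iron-sulfur clusters and the proton channels; the channels are encoded in mitochondrial DNA, which was not analysed here. Accessory subunits surround this core, and assembly factors help to build the complex without staying in it. Ndufa4 was named as a complex I subunit but belongs to complex IV, and Ndufa4l2 is its paralog.

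Libraries held between 9440223 and 16063736 counts in regions at day 7, and between 14021151 and 27737040 at day 21. Levels are given in CPM, the count scaled to the library's TMM-adjusted total. The cDC1 markers Xcr1 and Clec9a had 16.1 and 18.0 CPM at their ends at day 7 and 15.5 and 21.1 CPM at day 21, neither difference passing the test. Of the 9 listed cDC1 markers, 8 were tested at their ends: Irf8 fell (−0.51, edgeR adjusted p = 8.13e-08), Naaa (0.36, 3.33e-06) and Wdfy4 (0.47, 0.000157) rose, and 5 did not pass. In distal sets 6 of 8 rose, Clec9a among them (0.52, edgeR adjusted p = 9.17e-10), and 2 did not pass. Gene ends held 37.9% to 39.4% of each day 7 library and 36.1% to 36.6% of each day 21 library, without overlap. Macrophage and monocyte markers, measured at the ends of 13 of 13 listed genes, summed to 131 to 145 CPM at day 7 and 150 to 174 CPM at day 21, and plasmacytoid dendritic cell markers, at the ends of 3 of 6, to 72.9 to 79.3 and 66.4 to 70.1 CPM. Of the macrophage and monocyte markers, 4 rose at their ends and 9 did not pass, and Cd68 alone had 67.6 and 78.5 CPM. Of the plasmacytoid dendritic cell markers, Siglech rose at its ends, while Bst2 and Tcf4 fell. The summed ranges of the 2 days overlapped at the ends of the cDC1, cDC2, T and NK, B, neutrophil, melanoma and stroma markers. In distal sets the ranges of the days were apart for cDC1 markers (725 to 768 CPM at day 7 and 838 to 880 CPM at day 21), melanoma markers (156 to 161 and 139 to 155 CPM) and B cell markers (72.8 to 76.3 and 77.8 to 87.9 CPM), and overlapped for the other lists. The part of these marker differences in the Nduf results was not tested. In bulk libraries, fewer cells with an open region and a less open region per cell cannot be told apart.

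At day 21, accessibility was lower at the ends of 20 of 46 Nduf genes, higher at none, and did not pass the test at 26. Among all 13569 gene ends tested, 24.6% were lower and 6.71% higher (edgeR's quasi-likelihood test, Benjamini-Hochberg adjusted p under 0.05). Among the 7595 other gene ends of like level, 28.5% were lower and 7.08% higher. At an unadjusted p under 0.05, 23 Nduf genes were lower and 1 was higher, and no share over all gene ends is given for that threshold. DESeq2 called 16 Nduf genes lower and 0 higher, against 22.6% and 5.99% of all gene ends. The fitted change was below 0 at 40 of 46 genes, against 9127 of 13569 gene ends and 5344 of 7595 of like level. The median log2 fold change was −0.18, against −0.09 over all gene ends and −0.10 over those of like level. At 13 genes every day 21 library lay below every day 7 library, and at 0 genes the reverse held, against 20.6% and 5.95% of all gene ends. With trended offsets, which remove changes shared by genes of similar level, 12 Nduf genes were lower and 2 higher, against 12.1% and 12.0% of all gene ends. Without day 7 replicate 2, the shallowest library, 13 were lower, against 20% of all gene ends.

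Promoter sequences help to place these regions, since the Nduf end regions that fell lay mostly over an annotated gene start. Of the 64 tested, those over a start were lower at 17 of 40 and the others at 3 of 24. For Ndufs1, Ndufa2, Ndufb9, Ndufaf6 and Ndufa4l2 no start was found, so their regions count among the others, including the Ndufs1 region that fell. Weak regions are there too, such as that at the far end of Ndufv3 (0.59 CPM at day 7). These counts are therefore not a like comparison. None of the 64 was higher. Among all single regions 9.86% were lower and 9.49% higher, but these include distal regions and are not a like background. Counted at the end with the gene start only, 20 of 40 Nduf genes were lower, against 26.7% of all 10724 genes so tested. A window of 300 bases (250 before to 50 from the start) was found in RefSeq for 42 Nduf genes, with 44 windows. Among those without an entry were Ndufs1, Ndufa2, Ndufa4l2, Ndufaf6, Ndufb9 and Ndufb4c. Windows were searched on both strands for 5 motif families. NRF1 is nuclear respiratory factor, known from many promoters of mitochondrial genes. Its motif was searched in 2 forms, and the capitals of the first 6 sequences below spell the matches. It was in 8 of 44 Nduf windows (18.2%) and in 3.81% of all 21262 promoter windows, or 5.30% of those of genes tested at their ends. The 8 windows include 2 overlapping windows of Ndufa5 that hold the same match. The YY1 motif, in capitals in the Ndufs7 sequence, was in 11.4% of Nduf windows, 1.21% of all windows and 1.78% of those of tested genes. In the same order, the ETS motif CCGGAAG was in 13.6%, 11.6% and 15.8%. The GC box GGGCGG was in 50%, 46.2% and 59.2%, and CCAAT in 31.8%, 38.2% and 37.3%. Nduf shares of ETS and the GC box were thus above those of all windows and below those of tested genes. The sequences below hold the NRF1 match, in capitals, of the 6 Nduf genes with an NRF1 window and an end region, then the ETS match of Ndufb7 and the YY1 match of Ndufs7, the accessory and core subunits with the most negative changes. Each runs 5′ to 3′ on the gene's strand (RefSeq, GRCm38.p6), and other motifs are left in lower case. They lie at chr16:37654496-37654615 (minus), chr4:24897914-24898033 (plus), chr4:123718221-123718340 (minus), chr17:56717692-56717721 (plus), chr6:24527698-24527727 (minus), chr2:140170652-140170681 (plus), chr8:83566638-83566757 (plus) and chr10:80249463-80249492 (plus), in the order printed.
Ndufb4: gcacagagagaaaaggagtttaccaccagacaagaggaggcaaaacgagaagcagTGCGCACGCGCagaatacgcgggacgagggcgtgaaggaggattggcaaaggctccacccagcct
Ndufaf4: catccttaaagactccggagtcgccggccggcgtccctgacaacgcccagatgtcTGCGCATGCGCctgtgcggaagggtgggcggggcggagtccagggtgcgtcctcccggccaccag
Ndufs5: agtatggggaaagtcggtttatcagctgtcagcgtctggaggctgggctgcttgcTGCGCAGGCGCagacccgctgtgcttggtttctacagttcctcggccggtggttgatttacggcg
Ndufa11: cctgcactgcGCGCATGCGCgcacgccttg
Ndufa5: ttgtgtgagcTGCGCAGGCGCaaatctacc
Ndufaf5: agtcccgttgGCGCATGCGCctaatagaaa
Ndufb7: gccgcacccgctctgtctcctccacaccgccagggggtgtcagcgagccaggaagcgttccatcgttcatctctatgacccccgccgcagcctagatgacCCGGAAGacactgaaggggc
Ndufs7: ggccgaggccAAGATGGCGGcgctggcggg

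Positions count the start as base 1 and the base before it as −1. The NRF1 match ends at −182 in Ndufb4, −104 in Ndufaf4, −89 in Ndufs5, −51 in Ndufa11 and −17 in Ndufa5. Ndufa5 has a further annotated start, and counted from that start the same match ends at −181. In Ndufaf5 the NRF1 match lies after the start, at 17 to 26. In Ndufaf4 the 2 NRF1 forms overlap and count once. Ndufa6, which also has a match, had no end region. The ETS match of Ndufb7 lies at −20 to −14 and the YY1 match of Ndufs7 at 25 to 34. Of the 6 genes with a printed NRF1 match, 5 fell at their ends and Ndufs5 did not pass the test. Of the 40 tested Nduf genes with any window, 19 (47.5%) were lower. Across all 671 tested genes with an NRF1 window 48.7% were lower, against 25.3% of all 10876 tested genes with a window. With trended offsets, 4 of the 6 Nduf genes, 25.9% of all NRF1 genes and 12.2% of all genes with a window were lower. So were 12 (30%) of the 40 Nduf genes with a window. Without those offsets, 2 of 5 Nduf genes with a YY1 window were lower, against 37.7% of all tested genes with one. For ETS these were 3 of 6 and 29.2%, for the GC box 8 of 20 and 27.9%, and for CCAAT 6 of 13 and 28.1%. NRF1 windows had a median GC content of 63% against 60% for all windows, and their genes a median log2 CPM of 5.18 against 4.76. The part of GC content and level was not tested. A match describes letters and not a bound site.

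**Figure D1:**
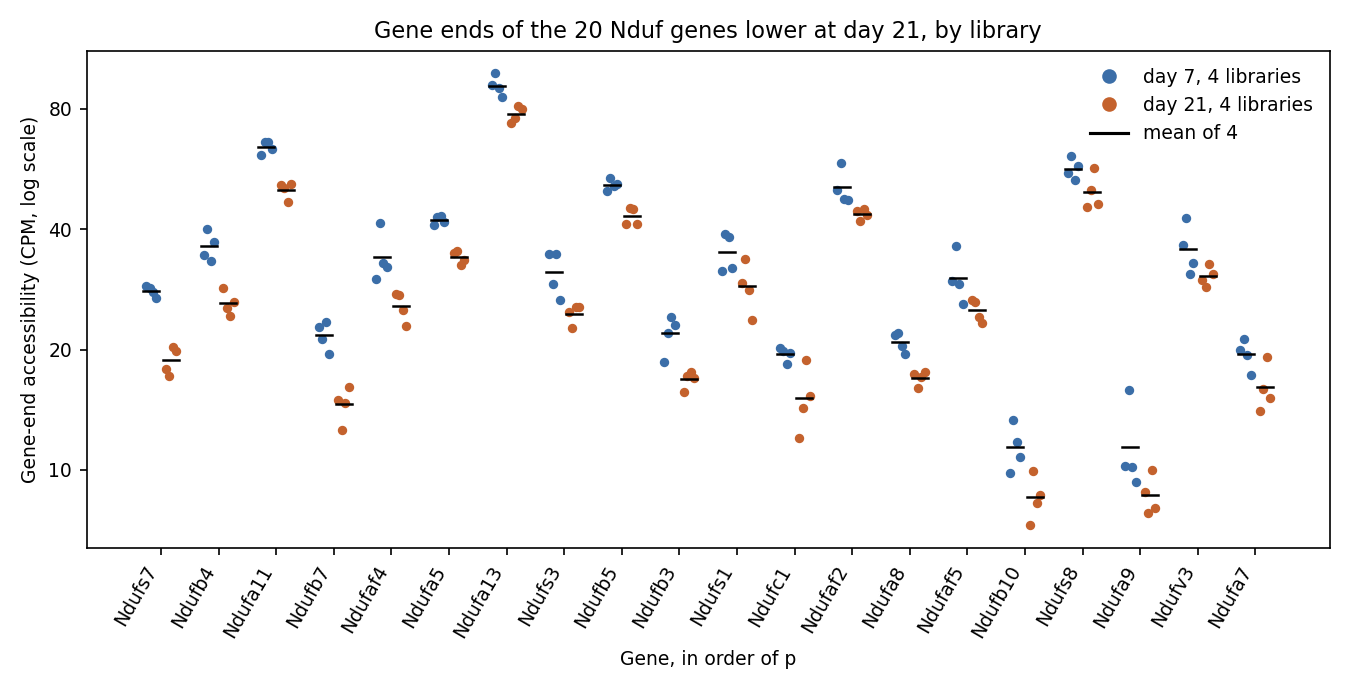
Gene-end accessibility in CPM (log axis) in each library for the 20 Nduf genes that were lower at day 21, ordered by p; points are libraries and bars are means of 4. The Ndufs7 libraries lie at 26.9 to 28.8 CPM at day 7 and 17.1 to 20.3 CPM at day 21, whereas those of Ndufa7 at the right overlap.

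Among the core subunits Ndufs7, Ndufs3, Ndufs1 and Ndufs8 fell, and the median over the 7 was −0.19. Ndufs7, which carries the last iron-sulfur cluster before coenzyme Q, had 28.8, 28.6, 27.9 and 26.9 CPM in the day 7 libraries and 17.9, 17.1, 20.3 and 19.8 CPM in the day 21 libraries. The days were far apart relative to the spread within each. The change was −0.57 ± 0.09 (log2 fold change ± SE, n = 4 per day here and below, edgeR adjusted p = 1.12e-06), and it lay in 1 region over the gene start (chr10:80248895-80249660) that overlaps no other gene's window. Ndufs3, a subunit of the part of the matrix arm next to coenzyme Q, had 34.7, 29.1, 34.8 and 26.6 CPM at day 7 and 24.8, 22.7, 25.5 and 25.5 CPM at day 21. The days did not overlap, although day 7 replicate 4 came close to day 21. The change was −0.34 ± 0.09 (edgeR adjusted p = 0.00161), and its region over the start (chr2:90904172-90905174), which fell from 20.7 to 16.5 CPM, is shared with Kbtbd4. Without shared regions Ndufs3 did not pass (edgeR adjusted p = 0.177). That run left only its far-end region, with 6.03 CPM at day 7 and 4.82 CPM at day 21. Fitted as a single region, it changed by −0.34.

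Ndufs1, the largest subunit of the arm that accepts electrons from NADH, had 31.5, 38.9, 38.2 and 32.0 CPM at day 7 and 29.4, 33.7, 28.2 and 23.7 CPM at day 21. The days overlapped through day 21 replicate 2. The change of −0.29 ± 0.09 (edgeR adjusted p = 0.00657) came from 1 region shared with Eef1b2, and did not pass without day 21 replicate 4 (adjusted p = 0.101) or with trended offsets (0.0969). Ndufs8, an iron-sulfur subunit, had 55.4, 61.0, 53.0 and 57.4 CPM at day 7 and 45.4, 50.2, 56.9 and 46.3 CPM at day 21. Day 21 replicate 3 lay among the day 7 libraries. The change was −0.19 ± 0.07 (edgeR adjusted p = 0.0262). It lost significance under trended offsets (adjusted p = 0.309), with DESeq2 (0.0529) and without day 7 replicate 2 (0.0912), day 7 replicate 4 (0.0682), day 21 replicate 1 (0.110) or day 21 replicate 4 (0.131).

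The core subunits Ndufv1 and Ndufv2 did not pass. Ndufv1, which binds NADH and the flavin, had 32.7, 42.9, 42.6 and 39.2 CPM at day 7 and 33.8, 34.0, 37.8 and 33.2 CPM at day 21 (−0.18 ± 0.08, edgeR adjusted p = 0.0669). It overlapped through day 7 replicate 1, and passed without that library (adjusted p = 0.00878), without day 21 replicate 3 (0.0184), with libraries thinned to equal totals (0.0334) and with unscaled library totals (0.0469). Its partner Ndufv2, an iron-sulfur subunit, had 59.1, 40.7, 51.3 and 56.4 CPM at day 7 and 51.4, 49.6, 51.8 and 49.6 CPM at day 21. The day 21 libraries lay inside the day 7 range (−0.05 ± 0.07, edgeR adjusted p = 0.656).

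**Figure D2:**
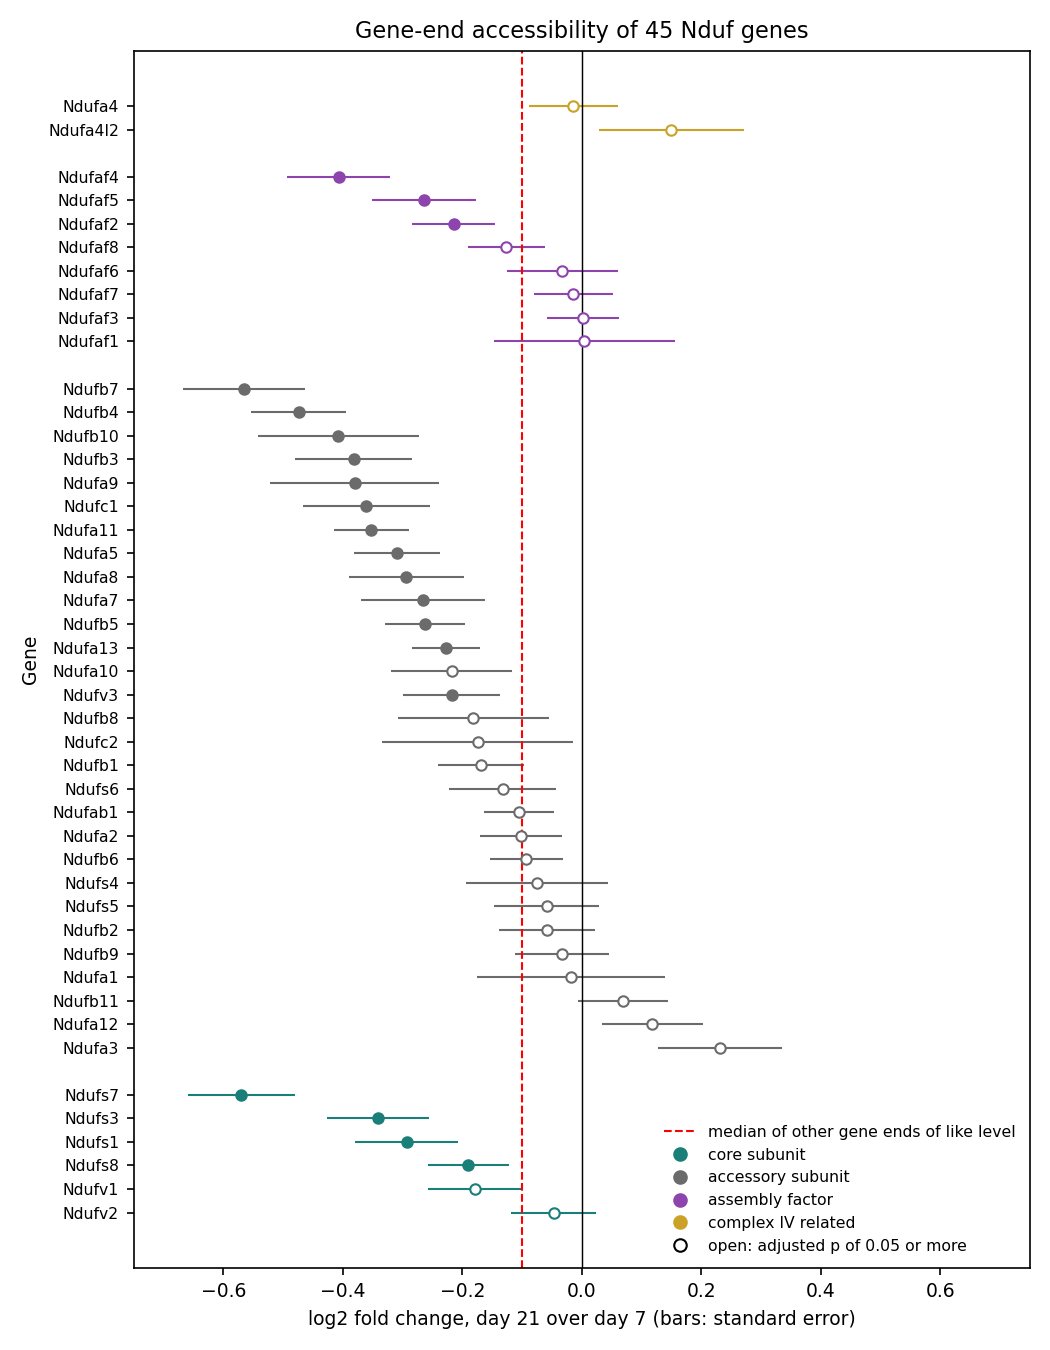
Log2 fold change (day 21 over day 7) with its standard error at the ends of 45 Nduf genes by class; filled points passed the test and open points did not, and the dashed line is the median of other gene ends of like level (−0.10). Points of 39 genes lie below 0, and every filled point is lower at day 21. Over all gene ends tested, 9127 of 13569 were fitted below 0.

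Accessory subunits fell at 13 of 29 measured genes, with a median of −0.18, while the 16 that did not pass ran from −0.22 to 0.23. Among all gene ends 24.6% were lower, with a median of −0.09. By name, 6 of 11 Ndufa, 5 of 11 Ndufb, 1 of 2 Ndufc, 0 of 3 Ndufs (unadjusted p 0.143 or more) and 1 of 1 Ndufv genes fell. Ndufb7, a membrane-arm subunit on the side of the intermembrane space, had 22.7, 21.3, 23.4 and 19.4 CPM at day 7 and 15.0, 12.6, 14.7 and 16.1 CPM at day 21. No library of one day reached the other day, and the change of −0.57 ± 0.10 (edgeR adjusted p = 1.52e-05) lay in 1 region over the start (chr8:83566482-83567403) that holds the printed promoter sequence. Ndufb4, also of the membrane arm, had 34.6, 40.1, 33.3 and 37.2 CPM at day 7 and 28.5, 25.4, 24.2 and 26.3 CPM at day 21. Its change was −0.47 ± 0.08 (edgeR adjusted p = 5.32e-06), without overlap. Both of its end regions fell: that over the start (chr16:37653867-37654715), which holds the printed NRF1 match, from 34.0 to 24.9 CPM, and that at the far end from 2.29 to 1.23 CPM. Ndufa11, a membrane-arm subunit that contacts complex III in the respiratory supercomplex, had 61.3, 66.1, 66.0 and 63.6 CPM at day 7 and 51.7, 50.6, 46.8 and 51.8 CPM at day 21. The days were clearly apart (−0.35 ± 0.06, edgeR adjusted p = 1.34e-05), in a region shared with Vmac.

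Ndufa5, a subunit of the arm in the matrix, had 41.0, 42.8, 43.2 and 41.8 CPM at day 7 and 34.8, 35.4, 32.6 and 33.5 CPM at day 21. Its libraries varied little within a day and did not overlap (−0.31 ± 0.07, edgeR adjusted p = 0.000643), in a region shared with Asb15. Ndufa13, also known as Grim19, had 91.5, 98.1, 90.1 and 85.8 CPM at day 7 and 73.9, 76.1, 81.2 and 79.9 CPM at day 21. It had the highest summed level of the 20 genes that fell, and its change was −0.23 ± 0.06 (edgeR adjusted p = 0.00157). Of its 2 regions near the start, both shared with Tssk6, that covering the start had 42.3 and 38.4 CPM and did not pass (edgeR adjusted p = 0.214), and the neighbouring region fell from 48.5 to 38.3 CPM (0.000461).

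Membrane-arm subunits Ndufb5 and Ndufb3 fell as well. Ndufb5 had 50.0, 53.6, 51.4 and 51.9 CPM at day 7 and 41.2, 45.1, 45.0 and 41.3 CPM at day 21 (−0.26 ± 0.07, edgeR adjusted p = 0.00178). Ndufb3 had 18.7, 21.9, 24.2 and 23.0 CPM at day 7 and 15.7, 17.1, 17.6 and 17 CPM at day 21 (−0.38 ± 0.10, edgeR adjusted p = 0.00182). Neither gene's libraries overlapped between days, and their regions are shared with Mrpl47 and Fam126b. Ndufa8, a subunit facing the intermembrane space, had 21.7, 22.1, 20.4 and 19.5 CPM at day 7 and 17.4, 16.1, 17 and 17.6 CPM at day 21. The days did not overlap (−0.29 ± 0.10, edgeR adjusted p = 0.0153), and the call was lost with trended offsets (0.0919) and windows of 2000 bp (0.113). Ndufc1, a small membrane-arm subunit, had 20.2, 19.8, 18.4 and 19.6 CPM at day 7 and 12.0, 14.3, 18.8 and 15.3 CPM at day 21. It overlapped through day 21 replicate 3 (−0.36 ± 0.11, edgeR adjusted p = 0.00697), and did not pass without day 21 replicate 1 (0.0512).

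The other 4 accessory subunits that fell were Ndufb10 (−0.41, edgeR adjusted p = 0.0159), Ndufa9 (−0.38, 0.0331), Ndufv3 (−0.22, 0.0336) and Ndufa7 (−0.27, 0.0421). In all 4 the days overlapped, and each lost its call when single libraries were left out. Ndufb10 lost it without day 7 replicate 2 (adjusted p = 0.0698) or day 21 replicate 1 (0.0599). Ndufa9 lost it without day 7 replicate 2 (0.320), day 21 replicate 2 (0.0959) or day 21 replicate 4 (0.103). Ndufv3 lost it without day 7 replicate 1 (0.0691), day 7 replicate 2 (0.246), day 21 replicate 1 (0.0668), day 21 replicate 2 (0.110) or day 21 replicate 4 (0.0635). Its start region, shared with Wdr4, fell from 35.2 to 29.8 CPM, and the weak far-end region left without sharing gave 0.47 (0.508). Ndufa7 lost it without day 7 replicate 1 (0.0815), day 7 replicate 2 (0.118), day 7 replicate 3 (0.0770), day 21 replicate 1 (0.141), day 21 replicate 2 (0.0789) or day 21 replicate 4 (0.138). Ndufa9, Ndufv3 and Ndufa7 also did not pass with DESeq2 (0.0588, 0.0587 and 0.0677) or with trended offsets (0.0671, 0.330 and 0.167), nor Ndufa9 after thinning (0.0597). Ndufb7 and Ndufb4 passed under each alternative run for them.

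Accessory subunits that did not pass included the acyl carrier protein Ndufab1, at 76.2 ± 2.15 and 70.8 ± 4.15 CPM (mean ± SD, day 7 and day 21; −0.11 ± 0.06, edgeR adjusted p = 0.171). Ndufs4, an accessory subunit of the NADH-accepting arm whose loss is used as a mouse model of Leigh syndrome, had 12.6 ± 0.99 and 12.0 ± 1.14 CPM (−0.07 ± 0.12, edgeR adjusted p = 0.670). Ndufa3 and Ndufa12 were the 2 genes called higher with trended offsets (0.30, adjusted p = 0.0232, and 0.22, 0.0466). Without those offsets their changes were 0.23 and 0.12 and did not pass (0.0790 and 0.299); Ndufa3 passed without day 21 replicate 1 (0.30, 0.0281). Ndufb6 had unequal ends. The region over its start (chr4:40278915-40279980) fell from 21.6 to 17.1 CPM, a change of −0.33 (adjusted p = 0.0203 in edgeR), the region at the far end, shared with Smim27 and Topors, had 47.6 and 47.7 CPM, and their sum did not pass.

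Of the 8 assembly factors, 3 fell and 5 did not pass, with a median of −0.08, against 24.6% lower and a median of −0.09 over all gene ends. Ndufaf4, which acts early on the arm that binds coenzyme Q, had 30.0, 41.3, 33.0 and 32.2 CPM at day 7 and 27.6, 27.3, 25.1 and 22.9 CPM at day 21. The days did not overlap (−0.41 ± 0.09, edgeR adjusted p = 0.000191), and the region over the start (chr4:24897819-24898448), with the printed NRF1 match, fell from 31.5 to 23.2 CPM. Ndufaf2, a paralog of Ndufa12 that occupies its place late in assembly, had 50.2, 58.7, 47.5 and 47.2 CPM at day 7 and 44.3, 42.0, 44.9 and 43.4 CPM at day 21. Its days did not overlap (−0.21 ± 0.07, edgeR adjusted p = 0.0138), in a region shared with Ercc8. Ndufaf5, which hydroxylates an arginine of Ndufs7, had 29.7, 36.2, 29.2 and 25.9 CPM at day 7 and 26.5, 26.3, 24.1 and 23.4 CPM at day 21. Day 7 replicate 4 lay below 2 of the day 21 libraries (−0.26 ± 0.09, edgeR adjusted p = 0.0158), and the region is shared with Esf1. Ndufaf2 and Ndufaf5 lost their calls with trended offsets (adjusted p = 0.238 and 0.174) and without day 7 replicate 2 (0.121 and 0.139), and Ndufaf5 also without day 21 replicate 4 (0.0791). Ndufaf8, which stabilises Ndufaf5, had a log2 fold change of −0.13 and did not pass, and those of Ndufaf1, Ndufaf3, Ndufaf6 and Ndufaf7, which did not pass, lay between −0.03 and 0.00.

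Subunits and assembly factors were set side by side without a test. The share lower was 17 of 36 subunits (47.2%) and 3 of 8 assembly factors (37.5%), and the medians were −0.19 and −0.08. Without day 7 replicate 2 the counts were 12 and 1, and 20% of all gene ends were lower. The subunit sum ran from 1166 to 1236 CPM at day 7 and from 1011 to 1088 CPM at day 21, and the assembly factor sum from 318 to 352 and from 294 to 313 CPM. Both ranges were apart. The ratio of the subunit to the assembly factor sum was 3.52, 3.51, 3.73 and 3.71 at day 7 and 3.33, 3.44, 3.48 and 3.54 at day 21. Day 21 replicate 4 exceeded 2 of the day 7 libraries, so the ratios overlapped between days. Of the complex IV related pair neither gene passed: the log2 fold changes were −0.01 at Ndufa4 and 0.15 at Ndufa4l2 (edgeR adjusted p = 0.909 and 0.360).

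Sharing of regions was common among these genes. An end region overlapped the window of another gene in 27 of 46 Nduf genes (58.7%), against 28.4% of all gene ends tested, and counts in such a region cannot be assigned to 1 of the genes. Subunits that shared a region were lower at 11 of 20, and those that shared none at 6 of 16, against 29.1% and 22.8% of all gene ends that shared a region or none. With shared regions left out, 23 Nduf genes could be tested and 8 were lower, against 21.5% of all gene ends so treated. Per kilobase of end region at day 7, levels ran from 7.14 CPM at Ndufa1 to 80.5 CPM at Ndufaf8, with a median of 32.4 CPM.

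Distal accessibility moved in both directions. Of 28 Nduf genes, 4 were lower (Ndufs1, Ndufa2, Ndufb3 and Ndufb4) and 6 higher (Ndufb4c, Ndufb4b, Ndufs4, Ndufa11, Ndufaf6 and Ndufa8) at day 21, against 11.4% lower and 18.3% higher of all 14486 distal sets tested. Libraries of the days did not overlap in 4 sets that were lower (Ndufs1, Ndufa2, Ndufb3 and Ndufs6, which did not pass, adjusted p = 0.113 in edgeR) and in the 6 that rose, against 10.4% and 16.5% of all sets. The Ndufb4 libraries overlapped through day 21 replicate 1. The median was 0.10, against 0.04 over all sets. Over the 22 subunits it was −0.02, with 4 lower and 5 higher. Over the 5 assembly factors it was 0.17, with 0 lower and 1 higher. Assignment to the nearest gene end does not show that a region acts on that gene.

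Ndufs1 distal regions had 12.2, 14.9, 12.4 and 10.7 CPM at day 7 and 7.69, 4.41, 5.20 and 6.82 CPM at day 21. The days did not overlap (−1.05 ± 0.15, edgeR adjusted p = 6.20e-08). Of its 3 distal regions, that at chr1:63138577-63139112, 4.75 kb from the gene end, fell from 4.65 to 0.86 CPM (−2.41, adjusted p = 8.95e-10 in edgeR), and another 12.9 kb away fell from 6.23 to 4.07 CPM. Ndufb3 distal regions had 5.91, 6.61, 6.01 and 6.30 CPM at day 7 and 3.88, 3.62, 4.14 and 3.68 CPM at day 21, without overlap (−0.70 ± 0.18, edgeR adjusted p = 0.00223). The Ndufb4 distal set, which is not among the 8 with the smallest p, changed by −0.32 (edgeR adjusted p = 0.0311) and was 0.41 with regions within 25 kb only, where it did not pass (0.512). It also lost its call without day 7 replicate 3 (0.146), day 21 replicate 2 (0.108), day 21 replicate 3 (0.0589) or day 21 replicate 4 (0.0752), and after thinning (0.0516). Ndufa2, an accessory subunit, had 1 distal region, inside Tmco6, with 10.3, 11.7, 9.56 and 11.4 CPM at day 7 and 7.69, 7.60, 6.74 and 7.53 CPM at day 21. Every day 21 library was below day 7 (−0.54 ± 0.14, edgeR adjusted p = 0.00172).

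**Figure D3:**
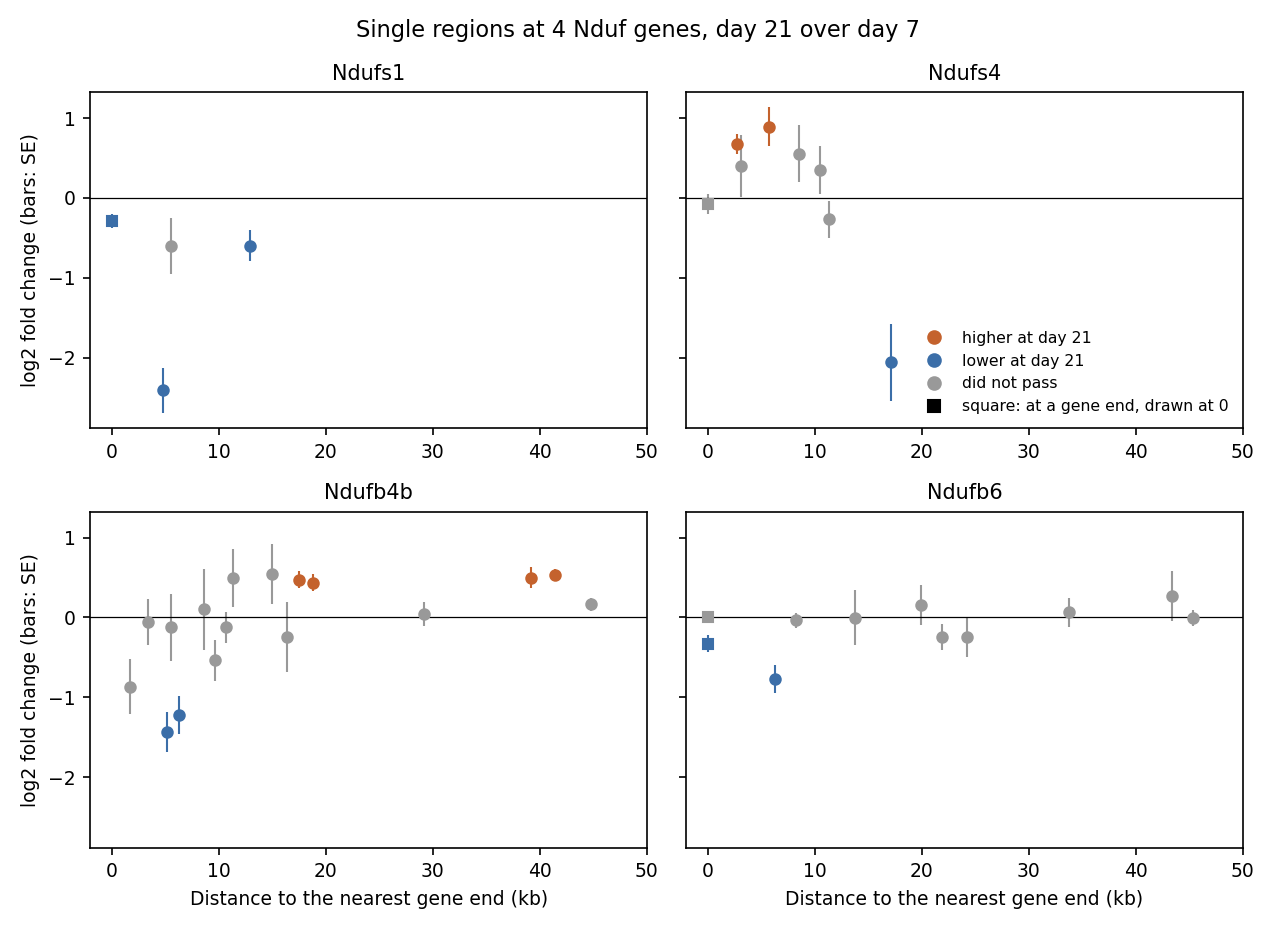
Log2 fold change with its standard error of each tested region of Ndufs1, Ndufs4, Ndufb4b and Ndufb6 against its distance to the nearest gene end in kb; squares are regions at a gene end, drawn at 0. The Ndufs1 region 4.75 kb from the end lies at −2.41, and Ndufb4b and Ndufs4 each hold regions above and below 0.

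Ndufs4 distal regions, all 7 inside the gene, had 21.7, 18.9, 18.3 and 24.6 CPM at day 7 and 28.6, 30.5, 26 and 28.6 CPM at day 21. All day 21 libraries were higher (0.44 ± 0.09, edgeR adjusted p = 0.000162), while the gene ends did not pass. Within the gene, regions 2.74 and 5.68 kb from an end rose by 0.67 and 0.89, and a weak region 17.1 kb away fell from 1.45 to 0.35 CPM. Ndufa11 distal regions had 3.5, 4.26, 3.38 and 2.87 CPM at day 7 and 5.22, 7.00, 6.62 and 6.35 CPM at day 21. They rose without overlap (0.87 ± 0.19, edgeR adjusted p = 0.000224), opposite to the Ndufa11 gene ends. Ndufaf6, an assembly factor, had 38.1, 38.4, 36.7 and 36.6 CPM at day 7 and 44.0, 46.5, 39.3 and 46 CPM at day 21 in its distal set. Day 21 replicate 3 was the closest to day 7, and the days did not overlap (0.23 ± 0.07, edgeR adjusted p = 0.0104). Ndufa8 also rose in its distal set, from 4.25 to 6.09 CPM (0.52 ± 0.18, edgeR adjusted p = 0.0238), a call lost without day 7 replicate 4 (0.119), day 21 replicate 1 (0.0508) or day 21 replicate 2 (0.0603).

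The 2 distal gains with the smallest p were those of Ndufb4c and Ndufb4b, and their regions lie in other genes. Ndufb4c had 18.0, 18.8, 16.2 and 16.1 CPM at day 7 and 21.2, 24.9, 25.3 and 24.2 CPM at day 21 (0.48 ± 0.10, edgeR adjusted p = 9.04e-05). Ndufb4b had 142, 136, 142 and 146 CPM at day 7 and 153, 178, 182 and 160 CPM at day 21 (0.25 ± 0.05, edgeR adjusted p = 0.000100). Neither overlapped between days, but all 4 regions of Ndufb4c lie in Mroh5 and all 17 of Ndufb4b in Dock8. Among the 17, 4 rose, 2 fell and 11 did not pass. With regions within 25 kb only, Ndufb4b did not pass (0.267).

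Of the 26 Nduf genes tested in both sets, 3 were lower in both (Ndufs1, Ndufb3 and Ndufb4) and 2 were lower at their ends and higher in distal regions (Ndufa11 and Ndufa8). A further 5 were lower at their ends only, 2 were higher and 1 lower in distal regions only, and 13 passed in neither. Of all 11029 genes tested in both sets, 4.39% were lower in both, 3.07% lower at their ends and higher in distal regions, 16.8% lower at their ends only, and 48.8% passed in neither. In distal regions only, 12.8% were higher and 6.95% lower.

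**Figure D4:**
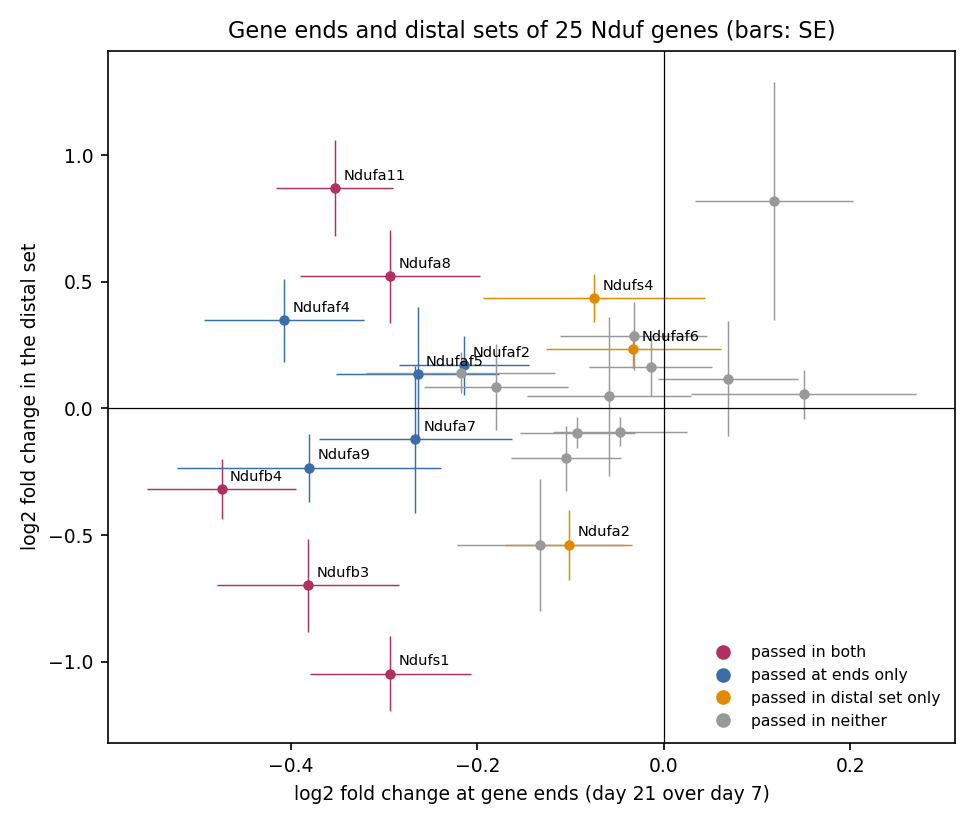
Log2 fold change at gene ends (horizontal) against that in the distal set (vertical) for 25 Nduf genes, with standard errors as bars and colours for where the test was passed. Ndufs1, Ndufb3 and Ndufb4 lie below 0 on both axes, and Ndufa11 and Ndufa8 are below 0 at their ends and above 0 in the distal set.

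Complex I assembly factors without the Nduf name were lower at the ends of 3 of 12 genes and higher at none, with a median of −0.13, against 24.6% and 6.71% of all gene ends and a median of −0.09. Tmem126b and Ecsit, both of the assembly complex for the membrane arm, fell from 77.1 to 64.3 CPM (−0.26, adjusted p = 0.000696 in edgeR) and from 95.8 to 80.7 CPM (−0.25, 0.000697). In distal regions 2 of 9 were higher, against 18.3% of all distal sets: Nubpl, which helps to deliver iron-sulfur clusters to complex I, rose from 69.6 to 94.7 CPM (0.44, edgeR adjusted p = 9.51e-09), and Ecsit from 3.65 to 6.90 CPM (0.90, 7.13e-05). Ecsit was thus lower at its ends and higher in its distal set, as were Ndufa11 and Ndufa8.

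Coenzyme Q synthesis, which makes the electron acceptor of complex I, had lower ends at 2 of 12 genes and higher ends at none, with a median of −0.06, where 24.6% of all gene ends were lower. Coq6 fell from 67.0 to 58.8 CPM (−0.19, adjusted p = 0.0134 in edgeR) and Coq7 from 64.2 to 56.8 CPM (−0.18, 0.0207), both hydroxylases of the ring. In distal regions 3 of 11 were higher and 1 lower, against 18.3% and 11.4% of all distal sets. Coq2, which joins the ring to its side chain, rose from 166 to 216 CPM (0.37, edgeR adjusted p = 4.23e-09), and Coq8a fell from 16.4 to 11.7 CPM (−0.50, 0.000697). Complex III, which takes electrons from coenzyme Q, had lower ends at 3 of 14 genes and higher at none, near the 24.6% of all gene ends, with a median of −0.10 against −0.09. Its assembly factor Uqcc2 fell from 16.6 to 10.2 CPM (−0.70, adjusted p = 7.84e-06 in edgeR) and its subunit Uqcrq from 64.6 to 55.2 CPM (−0.23, 0.00365). In distal regions of complex III genes, where 11.4% of all distal sets were lower, 1 of 5 was lower, Ttc19, from 20.3 to 16 CPM (−0.34, edgeR adjusted p = 0.00942), and Uqcc1 did not pass (0.26, 0.0530).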

How the data were processed

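ATAC-seq libraries of sorted intratumoral cDC1s numbered 8, 4 per day. The authors deposited raw counts per region over 128057 shared regions. The submitters' processing notes name MACS2 2.1.0.20150603, Picard 1.65, cutadapt 1.9, bedtools, SAMtools and the build mm10 (GRCm38). Aligner, read filters, counting rule and any transposase shift are not given in the sources used here. No column was left without a sample.

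Genes came from a RefSeq table of GRCm38.p6 without strand or exons; a RefSeq promoter table gave starts and strands where it had the gene. Coordinates of regions are printed as deposited, and no source used here says whether they count from 0 or 1. Region width was taken as end minus start. Counts summed per gene were tested with edgeR 4.0.16 (R 4.3.3; filterByExpr, TMM factors of the region table, glmQLFit and glmQLFTest with day as the only term, two-sided). Adjusted p values are Benjamini-Hochberg values over all features of a fit, and the threshold was 0.05. Gene ends of like level have a mean log2 CPM between 3.45 and 5.89, the 10th and 90th percentiles of the Nduf genes. A region in the windows of more than 1 gene entered each gene's sum. The fit was checked on simulated data. DESeq2 1.42.0, other scalings, windows and distances, and leaving out single libraries were alternatives.

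The members and lists were chosen with earlier results of these data known. Values in every library are given for the Nduf genes past the threshold with the smallest p (up to 14 at gene ends and 8 in distal regions), core subunits and up to 3 assembly factors, with their regions of smallest p; each other list is represented by its 2 genes of smallest p in either set. Of the Nduf genes, 1 is in the fits and counts but its own values are not reported here or drawn. Other Nduf genes were named as examples after their values were seen.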

Additional observations from a re-analysis of the deposited data

Results flagged for a closer look

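In 8 of 144 groups of 4 libraries, 1 library stood far from the other 3 by Dixon's criterion; chance flags about 1 in 20 groups. At gene ends the libraries were day 7 replicate 1 at Ndufa4l2 (9.58 CPM, below the others), day 7 replicate 2 at Ndufa9 (15.9 CPM, above), day 21 replicate 4 at Ndufaf6 (22.7 CPM, above), day 21 replicate 1 at Ndufb1 (32.8 CPM, below) and day 7 replicate 3 at Ndufb2 (35.0 CPM, above). In distal sets they were day 21 replicate 3 at Ndufa2 (6.74 CPM, below), day 21 replicate 1 at Ndufa7 (1.55 CPM, below) and day 21 replicate 1 at Ndufv1 (10.5 CPM, above). Without its outlying library, Ndufa9 no longer passed at its ends (edgeR adjusted p = 0.320), whereas Ndufa2 kept its distal call under each alternative run.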

How the results depend on the processing

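Of the 20 Nduf genes lower at their ends, 9 (Ndufa11, Ndufa13, Ndufa5, Ndufaf4, Ndufb3, Ndufb4, Ndufb5, Ndufb7 and Ndufs7) stayed lower and past the threshold under every alternative that could be run for them, and 11 lost the call under at least 1. Of the 9 kept, Ndufa11, Ndufa13, Ndufa5, Ndufb3 and Ndufb5 have only end regions shared with another gene. The run without shared regions could not include them. In distal sets 7 of 10 calls were kept. The count at gene ends was 12 lower and 2 higher with trended offsets, against 12.1% and 12.0% of all gene ends. Without shared regions, where only 23 genes could be tested, 8 were lower, against 21.5%. With single libraries left out it ran from 13 to 22 lower and from 0 to 1 higher. The shares of all gene ends then ran from 17.9% to 27.4% and from 5.33% to 6.59%. Distal counts ran from 3 to 5 lower and from 5 to 6 higher, and the shares of all distal sets from 9.55% to 11.5% and from 15.5% to 18.3%. Changes of sign were seen at the ends of Ndufv2 (0.055 with trended offsets and 0.017 without day 7 replicate 1) and Ndufv3 (0.47 without shared regions, which leaves its weak far-end region), and in the distal sets of Ndufb4 (0.41 within 25 kb) and Ndufv1 (−0.014 without day 7 replicate 1, and from −0.14 without day 21 replicate 1 to 0.19 without day 21 replicate 4). The cause of the changes under trended offsets and left-out libraries was not tested. Same-numbered libraries of the 2 days share only a number, and their deviations correlated at 0.02, 0.02, 0.05 and −0.02. With the replicate block the counts were 21 lower and 0 higher at gene ends, against 26.8% and 7.07% of all gene ends. In distal sets they were 4 lower and 6 higher, against 11.8% and 19.0% of all distal sets. With libraries thinned to the shallowest total, 20 Nduf genes were lower at their ends, against 22.4% of all gene ends. Weak regions of about 1 CPM limit what distal sets can show.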

Other observations

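Single distal regions of genes whose sums are mixed differed in direction. Of the 105 Nduf distal regions tested, 10 were lower and 15 higher at day 21, against 9.86% and 9.49% of all single regions (edgeR adjusted p under 0.05). Inside their gene, 1 of 31 was lower and 3 higher; outside it, 9 of 74 were lower and 12 higher. Ndufaf6, whose distal sum rose, had 2 regions that rose and 1 that fell, from 2.45 to 1.22 CPM (chr4:11084750-11085094, edgeR adjusted p = 0.0132), with 7 that did not pass and 1 not tested. Ndufb6, whose distal sum did not pass, had 1 region that fell, from 7.44 to 4.31 CPM, 6.29 kb from the gene (chr4:40285454-40285960, −0.77, edgeR adjusted p = 0.000668). Ndufa10, whose sums passed in neither set, had 1 region that rose, from 11.8 to 14.8 CPM, 45.1 kb away (chr1:92393958-92394764, 0.33, edgeR adjusted p = 0.0382). These regions were chosen after their values were seen.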
